A study of Homo sapiens with 4 samples.

Results

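UCHL1, ENO2, CHGB, SCG2, NMB and SYP, genes that serve as markers of neuroendocrine cells, were followed in the human lung cancer line NCI-H1299 (H1299). The 6 markers were chosen by name, and all 6 were found among the 46427 genes of the gene-level table. H1299 is a non-small cell lung cancer line. Each gene was measured in 4 RNA-seq libraries: DDX21 KO cells, a derivative of H1299 in which the RNA helicase gene DDX21 was knocked out, transfected with a mimic of the microRNA miR-34a (miR-34a DDX21 KO); DDX21 KO cells without treatment (non-treated DDX21 KO); H1299 cells transfected with the mimic (miR-34a H1299); and H1299 cells without treatment (non-treated H1299). Transfection used 25 nM RNA with a lipid reagent, and cells were harvested after 48 h. No control RNA is mentioned for the non-treated cells, so each miR-34a ratio also contains the effect of being transfected. Whether DDX21 KO is 1 clone, and how the gene was edited, is not stated in the labels.

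Neuroendocrine cells of the lung store peptides in dense-core vesicles and release them on stimulation, and small cell lung cancers keep much of this programme. UCHL1 is a ubiquitin hydrolase that is abundant in neurons, and ENO2 (neuron-specific enolase) is the neuronal form of a glycolytic enzyme. CHGB and SCG2 encode granins, acidic proteins packed into the cores of secretory granules. NMB encodes the bombesin-like peptide neuromedin B, and SYP encodes synaptophysin, a membrane protein of small synaptic vesicles. In lineage terms the programme is switched on by transcription factors such as NEUROD1 and INSM1, and many of its genes are kept off in other cells by the repressor REST. The microRNA miR-34a is induced by p53 and pairs through its seed with sites that lie mostly in 3′ UTRs.

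The mature sequence of hsa-miR-34a-5p, taken as the transfected microRNA, is shown first because its seed was used to search the transcripts of the markers. It is given from RefSeq on GRCh38.p14 (chr1:9151735-9151756, minus strand), with the seed, bases 2 to 8, in capitals.
hsa-miR-34a-5p: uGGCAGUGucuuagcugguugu
A 7-base match to this seed reads CACTGCC, or ACTGCCA where the last base faces the first base of the microRNA, and CACTGCCA joins both. None of the 6 markers had such a match, or the 6-base core ACTGCC, in the 3′ UTR of the transcripts of the deposited table that could be paired with GENCODE 29. Those 3′ UTRs ran from 141 bases in NMB to 1483 bases in SYP. Among 3′ UTRs within 20% of the length of that of SYP, 22.8% (582 of 2558) held a 7-base match. Over all 19108 genes with a 3′ UTR the share was 21.2%. At the lengths of the other markers it was 16.4% for ENO2, 9.49% for SCG2, 6.63% for UCHL1, 4.90% for CHGB, and 4.97% and 1.36% for the transcripts of NMB. Most 3′ UTRs of each of these lengths thus lacked a match. The shares use the longest 3′ UTR of each gene. ENO2 was the only marker with matches elsewhere in the transcript, and its 3 matches are printed below on GRCh38, plus strand, with the matching bases in capitals.
ENO2 5′ UTR, chr12:6914576-6914583: ccgccgccgcCACTGCCActcccgctct
ENO2 coding sequence, chr12:6915908-6915914: ggatctctatACTGCCAaaggtctttt
ENO2 coding sequence, chr12:6917651-6917656: ctgagcgggaACTGCCcctgtatcgc
The 5′ UTR match straddles position 6914580, where the deposited ENO2 transcript starts, while the GENCODE transcript starts further upstream. A match is a run of letters, and no binding was measured. Sites without the full 6-base core were not searched for.

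Library totals ran from 26868358 to 36263145 estimated counts, and 3 counts corresponded to 0.0840 to 0.111 CPM (counts scaled to a common library size). DDX21 had 182 CPM in miR-34a DDX21 KO and 206 CPM in non-treated DDX21 KO, against 588 CPM in miR-34a H1299 and 722 CPM in non-treated H1299, so its mRNA was lower in the knockout line but still present. All 8 mesenchymal genes looked at were detected, led by the intermediate filament VIM at 817 to 922 FPKM (fragments scaled by transcript length and library size). Of 11 epithelial and alveolar genes 4 or 5 were above 3 counts, with the junction protein gene CDH1 at 0 to 5 counts. The summed FPKM of the epithelial genes, mostly the keratins KRT8 and KRT18, was 1466 in miR-34a DDX21 KO, 942 in non-treated DDX21 KO, 891 in miR-34a H1299 and 440 in non-treated H1299. Its part in the results below was not tested. Marker genes of blood, endothelium and fibroblasts summed to 2 to 33 counts per library.

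Levels differed widely across the neuroendocrine programme. UCHL1 was among the most abundant mRNAs, NMB, ENO2 and SCG2 stood at 4.03 to 9.88 FPKM, and CHGB and SYP were low. NEUROD1, INSM1, CHGA and NCAM1 were at or near 0. NEUROD1, a neuronal differentiation factor, had 7 counts in non-treated DDX21 KO and 0 in the other 3 libraries, and INSM1, a zinc finger factor of neuroendocrine cells, was listed at 0 in all 4. CHGA, the granin most used in diagnosis, had 15 counts in miR-34a DDX21 KO and was listed at 0 in the other 3 libraries. NCAM1, the adhesion molecule CD56, had 0 to 3 counts.

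Per transcript length, the 6 markers kept the same order in all 4 libraries, with UCHL1 first, then NMB, ENO2, SCG2, CHGB and SYP. Among 19672 protein-coding genes UCHL1 ranked 81 to 166 by FPKM, NMB 5227 to 6443, ENO2 6104 to 7589, SCG2 7091 to 8109, CHGB 9647 to 10502 and SYP 10797 to 11800. Neighbours in the order were not always apart. The 95% counting intervals of NMB and ENO2 overlapped in miR-34a DDX21 KO, those of ENO2 and SCG2 in both non-treated libraries, and those of CHGB and SYP in non-treated H1299. All other neighbours were apart in every library. Each group had 1 library, so every interval here covers counting error only and no spread between cultures was measured.

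**Figure D1:**
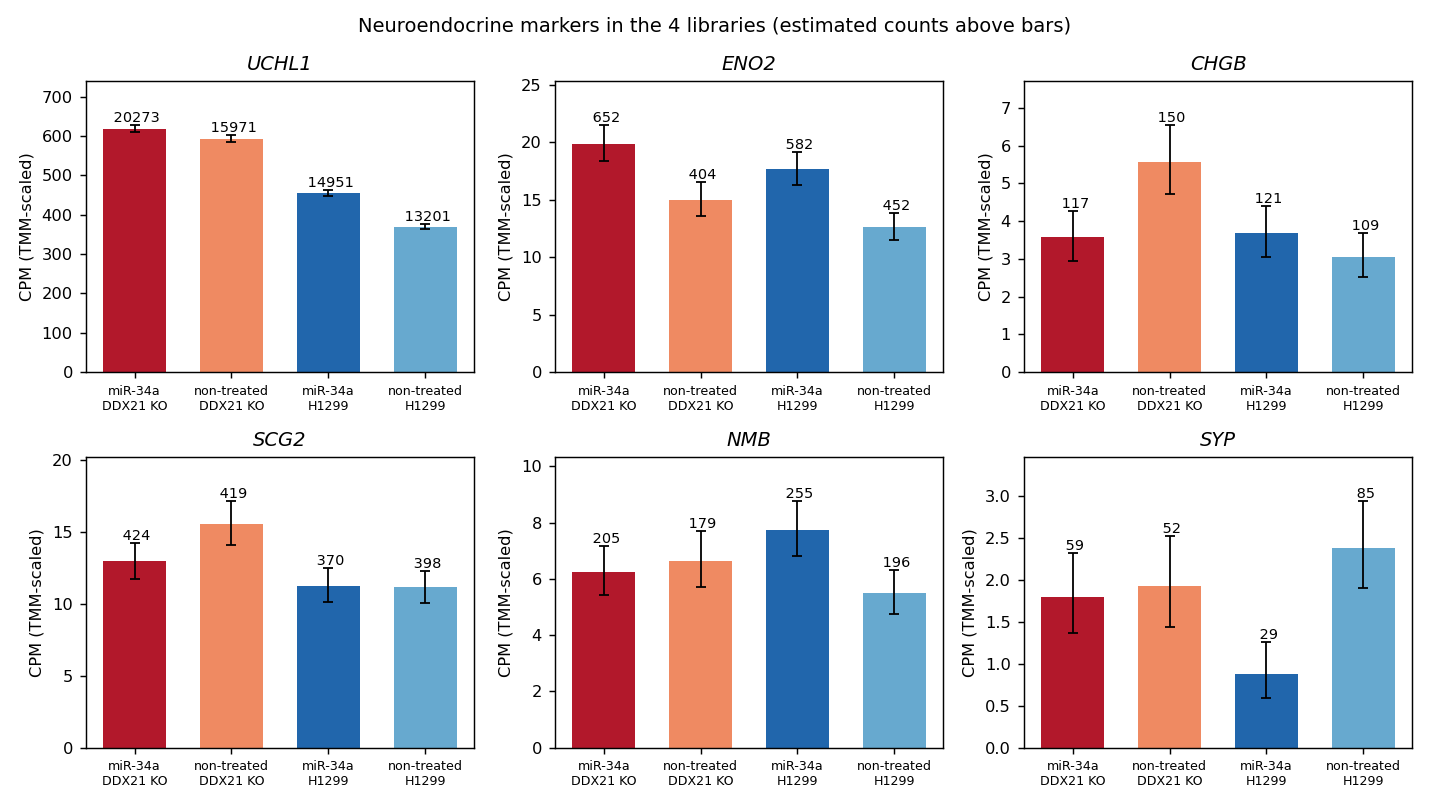
Level of each neuroendocrine marker in CPM after TMM scaling (vertical axis, from 0, a different scale in each panel) in the 4 libraries, with 95% counting intervals as bars and estimated counts printed above. UCHL1 runs from 370 CPM in non-treated H1299 to 619 CPM in miR-34a DDX21 KO, and SYP is lowest in miR-34a H1299 with 29 counts.

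UCHL1, the ubiquitin hydrolase, was higher in both DDX21 KO libraries than in both H1299 libraries, by less than 2-fold. UCHL1 (gene 7345, chromosome 4, 41256928 to 41268455 on GRCh38) had 619 CPM in miR-34a DDX21 KO and 593 CPM in non-treated DDX21 KO, against 455 CPM in miR-34a H1299 and 370 CPM in non-treated H1299. The 4 counting intervals did not overlap, as its counts of 13201 to 20273 made them narrow. Set against H1299, the log2 ratio of DDX21 KO stood at 0.68 (0.65 to 0.72) in non-treated cells, which is 1.60-fold, and at 0.44 (0.41 to 0.47) in transfected cells. Here and below, brackets hold the 95% counting interval, and a gene is said to have risen or fallen, or to be called, only where its ratio was at least 2-fold and its interval left out no change. A call compares libraries, since no group has a replicate. The log2 ratio of miR-34a to non-treated cells was 0.06 (0.03 to 0.09) in DDX21 KO and 0.30 (0.26 to 0.33) in H1299. A bulk library cannot tell more cells that express a gene from more RNA per cell.

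UCHL1 outweighed the rest of its enzyme family in every library. It made up 92.3% of the FPKM of the UCH family in miR-34a DDX21 KO, 92.0% in non-treated DDX21 KO, 88.3% in miR-34a H1299 and 86.5% in non-treated H1299. UCHL3, the closest relative, had 16.6 FPKM in miR-34a DDX21 KO and 15.6 FPKM in non-treated DDX21 KO, against 24.6 FPKM in miR-34a H1299 and 21.4 FPKM in non-treated H1299. UCHL3 was thus lower in the line where UCHL1 was higher. The ratio of UCHL1 to UCHL3 by FPKM was 30.2 and 30.5 in the DDX21 KO libraries, against 14.7 and 13.9 in the H1299 libraries. The log2 ratio of UCHL3 between the lines was -0.61 (-0.76 to -0.45) without and -0.65 (-0.79 to -0.52) with miR-34a, within 2-fold. UCHL5, a proteasome-bound member, stayed between 9.81 and 13.8 FPKM, and BAP1, the nuclear tumour suppressor of the family, between 11.1 and 15.2 FPKM.

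The start of UCHL1 faces that of a long noncoding RNA, UCHL1-DT, whose start lies at 41256727 on the other strand with 200 bases between them. In the table that RNA carries the older symbol UCHL1-AS1. UCHL1-AS1 had 10 counts in miR-34a DDX21 KO, 6 counts in non-treated DDX21 KO, 4 counts in miR-34a H1299 and 6 counts in non-treated H1299, so its level was too low to compare. RefSeq promoter windows of 300 bases on GRCh38.p14, with the last 50 bases after the start, were at hand for UCHL1, ENO2, NMB and SYP. With a match on either strand counted, GGGCGG, the GC box, occurred in all 4 and in 45.0% of 35116 promoters. TATAAA occurred in UCHL1 alone of the 4, on the minus strand, and in 11.5% of promoters. The cyclic AMP element TGACGTCA (1.85% of promoters) and the left part of the REST element TTCAGCACC (0.376%) occurred in none of the 4.

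ENO2, the neuronal enolase, was highest in the miR-34a library of each line. ENO2 (gene 2026, chromosome 12, 6914580 to 6923697) had 19.9 CPM in miR-34a DDX21 KO and 15.0 CPM in non-treated DDX21 KO, and 17.7 CPM in miR-34a H1299 and 12.7 CPM in non-treated H1299. Within each line the intervals of the miR-34a and the non-treated library overlapped in neither DDX21 KO nor H1299. The log2 ratio of miR-34a to non-treated cells was 0.41 (0.23 to 0.59) in DDX21 KO and 0.48 (0.30 to 0.66) in H1299, and the difference of these ratios was -0.08 (-0.33 to 0.18). Between the lines, DDX21 KO over H1299, it was 0.24 (0.05 to 0.44) without and 0.17 (0.01 to 0.33) with miR-34a. All of these lay within 2-fold.

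ENO2 was a small part of the enolase mRNA. ENO1, the general enolase of glycolysis, had 1332 FPKM in miR-34a DDX21 KO, 1484 FPKM in non-treated DDX21 KO, 1290 FPKM in miR-34a H1299 and 1426 FPKM in non-treated H1299. Of the enolase FPKM, ENO2 made up 0.578% in miR-34a DDX21 KO, 0.387% in non-treated DDX21 KO, 0.521% in miR-34a H1299 and 0.339% in non-treated H1299. ENO3, the muscle form, had 75 counts in miR-34a DDX21 KO and 22 in non-treated DDX21 KO, against 53 in miR-34a H1299 and 79 in non-treated H1299. ENO3 fell in DDX21 KO without miR-34a, with a log2 ratio of -1.37 (-2.19 to -0.74), and rose with miR-34a in DDX21 KO, with 1.41 (0.78 to 2.24). Of the genes on either side of ENO2, LRRC23 had intervals on the same side of 0 as ENO2 in all 4 comparisons, and ATN1 did not. LRRC23, which ends 350 bases before ENO2, had log2 ratios of 0.20 (0.02 to 0.38) in DDX21 KO and 0.41 (0.22 to 0.61) in H1299 with miR-34a. Between the lines the log2 ratio of LRRC23 was 0.52 (0.33 to 0.73) without and 0.31 (0.14 to 0.49) with miR-34a. ATN1, which starts 761 bases after ENO2, fell with miR-34a in H1299, with a log2 ratio of -1.05 (-1.29 to -0.83), and its log2 ratio in DDX21 KO was 0.14 (-0.09 to 0.38). The noncoding gene LOC124902868 overlaps the end of ENO2 by 1168 bases and is not used here.

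CHGB and SCG2, the granins, had their highest level in non-treated DDX21 KO. CHGB (gene 1114, chromosome 20, 5911510 to 5925353) had 3.57 CPM in miR-34a DDX21 KO and 5.57 CPM in non-treated DDX21 KO, against 3.68 CPM in miR-34a H1299 and 3.05 CPM in non-treated H1299. The non-treated DDX21 KO library stood apart from the other 3, whose intervals overlapped. Between the lines, the log2 ratio of CHGB was 0.85 (0.50 to 1.24) without miR-34a, which is 1.81-fold, and -0.04 (-0.42 to 0.34) with it. With miR-34a the log2 ratio was -0.63 (-1.003 to -0.28) in DDX21 KO and 0.26 (-0.12 to 0.66) in H1299.

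SCG2 (gene 7857, chromosome 2, 223596940 to 223602361) had 12.9 CPM in miR-34a DDX21 KO and 15.6 CPM in non-treated DDX21 KO, against 11.3 CPM in miR-34a H1299 and 11.1 CPM in non-treated H1299. Its intervals in the 2 H1299 libraries lay almost on top of each other, and that of non-treated DDX21 KO lay above both. Between the lines, the log2 ratio of SCG2 was 0.48 (0.28 to 0.68) without and 0.20 (-0.0032 to 0.41) with miR-34a. With miR-34a it was -0.27 (-0.46 to -0.07) in DDX21 KO and 0.01 (-0.19 to 0.22) in H1299. No ratio of either granin passed 2-fold with its interval clear of no change. The 4 comparisons share libraries, and non-treated DDX21 KO enters both the ratio between the lines and that of miR-34a in DDX21 KO.

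Among 6 granin genes, VGF, a precursor of several neuropeptides, held 49.7% to 64.8% of the summed FPKM. VGF had 8.52 FPKM in miR-34a DDX21 KO, 7.63 FPKM in non-treated DDX21 KO, 8.68 FPKM in miR-34a H1299 and 9.66 FPKM in non-treated H1299. VGF was thus lowest in the library where SCG2 and CHGB were highest. Its log2 ratio of miR-34a to non-treated cells in DDX21 KO, 0.149 (-0.0051 to 0.305), spanned 0, so the 2 DDX21 KO libraries were not clearly apart for VGF. SCG2 held 27.0% to 36.8% and CHGB 7.28% to 12.96%. SCG3, a sorting partner of CHGA, had 9 counts in miR-34a DDX21 KO and was listed at 0 in the other 3 libraries, and SCG5, a chaperone of a prohormone convertase, had 4 to 15 counts.

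NMB, the bombesin-like peptide gene, was highest in miR-34a H1299. NMB (gene 4828, chromosome 15, 84655132 to 84658199 for its 2 main transcripts) had 6.25 CPM in miR-34a DDX21 KO and 6.65 CPM in non-treated DDX21 KO, and 7.75 CPM in miR-34a H1299 and 5.49 CPM in non-treated H1299. The intervals of both DDX21 KO libraries overlapped those of all others, and the 2 H1299 libraries did not overlap each other. The log2 ratio of miR-34a to non-treated cells was -0.09 (-0.38 to 0.21) in DDX21 KO and 0.49 (0.22 to 0.77) in H1299. Between the lines, DDX21 KO over H1299, it was 0.27 (-0.02 to 0.58) without and -0.31 (-0.58 to -0.04) with miR-34a. WDR73, whose gene lies 848 bases away, had log2 ratios of 0.69 (0.56 to 0.82) in DDX21 KO and 0.65 (0.55 to 0.75) in H1299 with miR-34a.

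NMB was the only marker with more than 1 transcript in the deposited transcript table. NM_021077 held 59.5% of the NMB reads in miR-34a DDX21 KO, 53.6% in non-treated DDX21 KO, 52.5% in miR-34a H1299 and 56.6% in non-treated H1299. NM_205858 held 25.9% in miR-34a DDX21 KO, 39.7% in non-treated DDX21 KO, 32.9% in miR-34a H1299 and 29.6% in non-treated H1299. The predicted transcript XM_017022239, with another start and end, held 14.6% (10.1% to 20.2%, 95% Clopper-Pearson) in miR-34a DDX21 KO and 6.70% (3.51% to 11.4%) in non-treated DDX21 KO. It held 14.5% in miR-34a H1299 and 13.8% in non-treated H1299. The estimated split of reads between transcripts adds an error that these intervals leave out.

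Of the partners of NMB, the receptor of the related peptide had the highest level. GRP, gastrin-releasing peptide, was listed at 0 in all 4 libraries, as was the orphan receptor gene BRS3. NMBR, the preferred receptor of neuromedin B, was listed at 0 in both DDX21 KO libraries and had 7 counts in miR-34a H1299 and 8 in non-treated H1299. GRPR, the receptor of gastrin-releasing peptide, had 8.28 FPKM in miR-34a DDX21 KO and 6.01 FPKM in non-treated DDX21 KO, against 5.64 FPKM in miR-34a H1299 and 3.18 FPKM in non-treated H1299. Its log2 ratio with miR-34a was 0.44 (0.27 to 0.62) in DDX21 KO and 0.83 (0.62 to 1.04) in H1299. Between the lines it was 0.91 (0.70 to 1.13) without and 0.53 (0.36 to 0.69) with miR-34a, so all 4 ratios lay within 2-fold.

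SYP, the vesicle protein gene, fell with miR-34a in H1299 and was the only marker past 2-fold. SYP (gene 6855, chromosome X, 49187815 to 49200193) had 59 counts in miR-34a DDX21 KO and 52 in non-treated DDX21 KO, against 29 in miR-34a H1299 and 85 in non-treated H1299. These correspond to 1.80 CPM (1.37 to 2.32) in miR-34a DDX21 KO, 1.93 CPM (1.44 to 2.53) in non-treated DDX21 KO, 0.882 CPM (0.591 to 1.27) in miR-34a H1299 and 2.38 CPM (1.90 to 2.94) in non-treated H1299. The miR-34a H1299 library was below the other 3, whose intervals overlapped each other. The log2 ratio with miR-34a was -1.38 (-2.09 to -0.81) in H1299, which is 2.59-fold lower, and -0.10 (-0.66 to 0.47) in DDX21 KO. Between the lines it was -0.29 (-0.83 to 0.21) without miR-34a and 0.98 (0.36 to 1.72) with it, and 0.98 is 1.97-fold, just inside the threshold. In the H1299 pair SYP reached the minimum of 50 counts only through non-treated H1299. At a count minimum of 200 SYP does not enter.

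The antisense gene SYP-AS1 overlaps SYP by 1355 bases and was listed at 0 in all 4 libraries. Since it is not stated whether the counting used strand, reads of SYP and SYP-AS1 cannot be told apart. PRICKLE3, which ends 1441 bases from SYP, had log2 ratios of 0.46 (0.13 to 0.81) in DDX21 KO and 0.73 (0.39 to 1.10) in H1299 with miR-34a, the other direction from SYP. The widely expressed relatives of SYP were far above it. SYPL1, a synaptophysin-like protein of transport vesicles, had 30.2 FPKM in miR-34a DDX21 KO, 32.2 FPKM in non-treated DDX21 KO, 35.6 FPKM in miR-34a H1299 and 33.95 FPKM in non-treated H1299. Of the summed FPKM of its family, SYP itself held 1.22% in miR-34a DDX21 KO, 1.07% in non-treated DDX21 KO, 0.415% in miR-34a H1299 and 1.07% in non-treated H1299.

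SYP was also the only marker whose highest CPM was at least 2-fold its lowest, so genes of like pattern were looked for with SYP alone. Among 10026 protein-coding genes with a mean count of at least 200, a level that SYP itself does not reach, the nearest by root mean square distance of centred log2 CPM over the 4 libraries were NRM (0.0689), RAVER1 (0.0771) and H2AC20 (0.0893). NRM, a nuclear membrane protein gene, had 6.74 CPM in miR-34a DDX21 KO and 8.21 CPM in non-treated DDX21 KO, against 3.62 CPM in miR-34a H1299 and 9.10 CPM in non-treated H1299. RAVER1, an RNA-binding protein gene, and H2AC20, a histone gene, were likewise lowest in miR-34a H1299. Since these genes were chosen for their likeness to SYP, their low level there follows from the choice. SYP had 29 to 85 counts, and the distances leave out its counting error, so the order of the nearest genes is not settled.

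**Figure D2:**
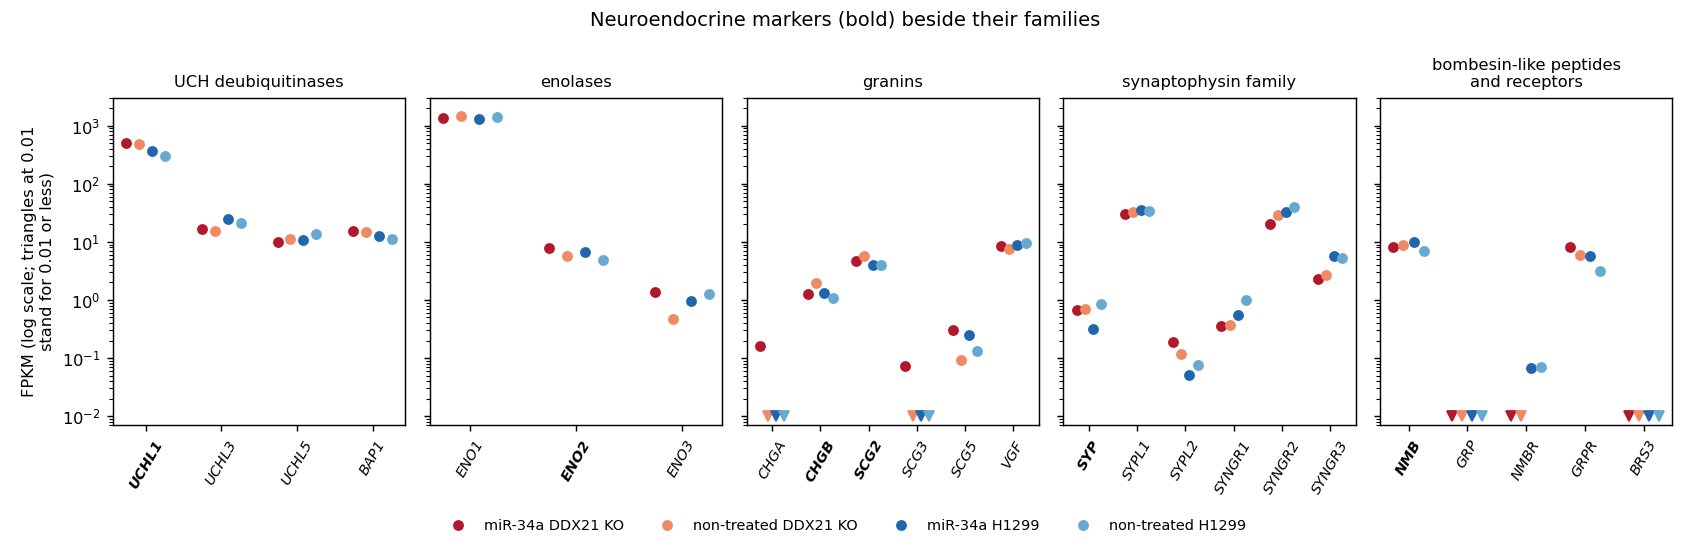
FPKM (vertical axis, log scale) of each marker, in bold, beside the other genes of its family in the 4 libraries, with triangles at the foot for genes listed at 0. UCHL1 stands above its relatives, while ENO2 and SYP lie far below ENO1 and SYPL1.

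At most 1 of the 6 markers was called in each comparison. Genes with at least 50 counts in a library of the comparison entered, which all 6 markers did. With miR-34a in H1299, 0 of 6 markers were called higher and 1, SYP, was called lower, beside 3.62% and 4.27% of 13597 genes. Intervals lay above 0 for UCHL1, ENO2 and NMB, 3 of 6 beside 36.7% of all genes, and below 0 for SYP, 1 of 6 beside 35.6%. The median log2 ratio was 0.28 over the markers and 0.00267 over all genes.

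With miR-34a in DDX21 KO, 0 of 6 markers were called in either direction, beside 1.62% of 13382 genes called higher and 1.69% called lower. Intervals lay above 0 for UCHL1 and ENO2, 2 of 6 beside 29.8%, and below 0 for CHGB and SCG2, 2 of 6 beside 30.4%. The median was -0.09 over the markers, near the 0.00019 of all genes.

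Between the lines without miR-34a, DDX21 KO over H1299, 0 of 6 markers were called, beside 3.79% of 13600 genes called higher and 2.75% called lower. Intervals lay above 0 for UCHL1, ENO2, CHGB and SCG2, 4 of 6 beside 33.2%, and below 0 for 0 of 6 beside 35.8%. The median was 0.38 over the markers and -0.02 over all genes. With miR-34a in both lines 0 of 6 markers were called, beside 3.99% of 13621 genes called higher and 2.96% called lower. Intervals lay above 0 for UCHL1, ENO2 and SYP, 3 of 6 beside 34.2%, and below 0 for NMB, 1 of 6 beside 35.7%. The median was 0.18 over the markers and -0.0065 over all genes.

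**Figure D3:**
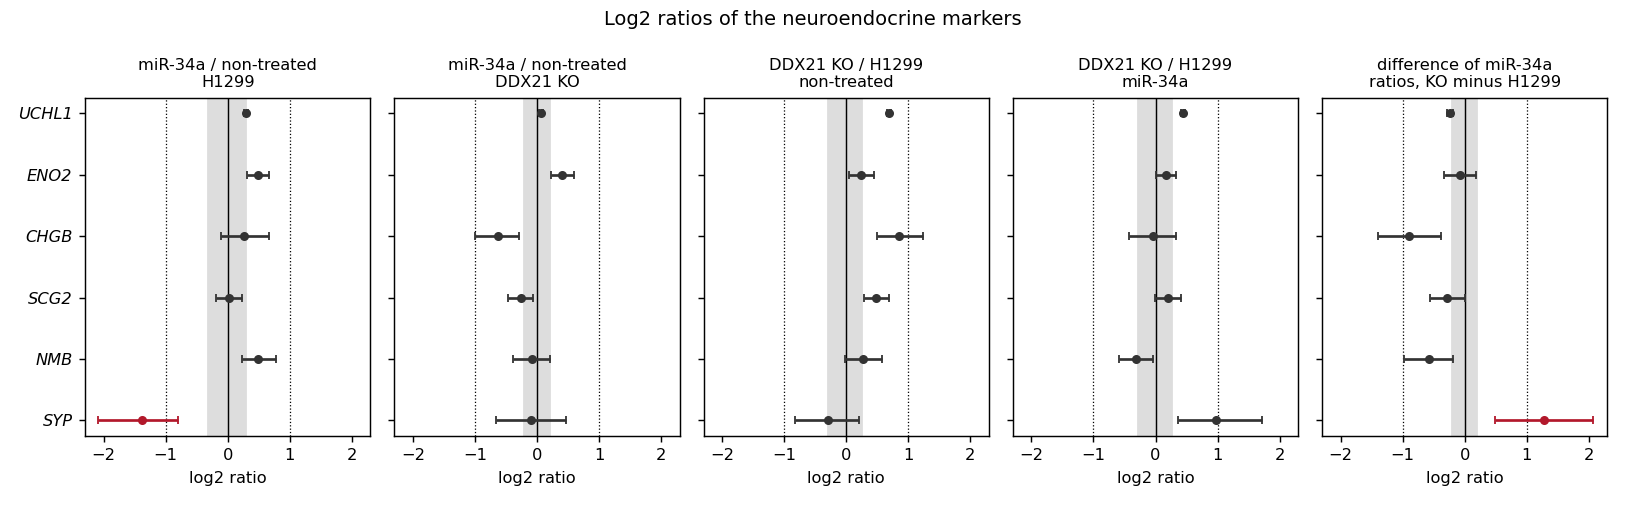
Log2 ratio of each marker (horizontal axis) in the 4 comparisons and the difference of the miR-34a ratios, with 95% counting intervals as bars. Dotted lines mark 2-fold, the grey band is the interquartile range of all genes that entered, and red points are called: SYP with miR-34a in H1299 at -1.38, and SYP in the difference at 1.27.

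The difference between the miR-34a ratio in DDX21 KO and that in H1299 was 1.27 (0.48 to 2.07) for SYP, the only marker called. That is 1 of 6 called higher beside 2.11% of 13964 genes, and 0 of 6 called lower beside 2.07%. Its interval was the 1 of 6 above 0, beside 22.8%. The differences were -0.24 (-0.28 to -0.19) for UCHL1, -0.90 (-1.40 to -0.39) for CHGB and -0.58 (-0.97 to -0.19) for NMB, and these were the 3 of 6 with an interval below 0, beside 24.9%. Those of ENO2 and SCG2, -0.08 (-0.33 to 0.18) and -0.28 (-0.56 to 0.0030), spanned 0. The median was -0.26 over the markers and -0.01 over all genes.

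Many other genes of the neuroendocrine programme were too low for a ratio. Of 13 lineage transcription factors, 11 stayed under 50 counts in all 4 libraries, and 4 of these were at or under 3 counts in each. POU3F2 (BRN2), a neural POU factor, had 38 counts in miR-34a DDX21 KO and 29 in non-treated DDX21 KO, against 45 in miR-34a H1299 and 121 in non-treated H1299. POU3F2 fell with miR-34a in H1299, with a log2 ratio of -1.27 (-1.84 to -0.80), and in DDX21 KO without miR-34a, with -1.60 (-2.29 to -1.06). ISL1, a LIM homeodomain factor, had 27 counts in miR-34a DDX21 KO and 8 in non-treated DDX21 KO, against 46 in miR-34a H1299 and 76 in non-treated H1299. It fell in DDX21 KO without miR-34a, with a log2 ratio of -2.60 (-4.10 to -1.79). With miR-34a in H1299, 1 of the 2 entering lineage factors was called lower, beside 4.27% of all genes. In DDX21 KO without miR-34a it was 2 of 2, beside 2.75%. For both factors the difference of the miR-34a ratios was called higher, at 1.37 for POU3F2 and 1.89 for ISL1, beside 2.11% of all genes. Both reached 50 counts in non-treated H1299 alone, so the count minimum favours calls that set this library against the others. Neither factor entered the comparison of miR-34a in DDX21 KO.

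REST, the repressor of neuronal genes, was expressed at 11.96 to 14.1 FPKM. Its CPM was 99.6 in miR-34a DDX21 KO, 100.04 in non-treated DDX21 KO, 116 in miR-34a H1299 and 101 in non-treated H1299, and it was called in no comparison. Of 10 genes listed around REST and its corepressor complex 9 entered, and HDAC1, a histone deacetylase subunit, was the only one called. HDAC1 had 1331 counts in miR-34a DDX21 KO and 2796 in non-treated DDX21 KO, against 2074 in miR-34a H1299 and 4807 in non-treated H1299. It fell with miR-34a in both lines, with log2 ratios of -1.35 (-1.45 to -1.26) in DDX21 KO and -1.09 (-1.17 to -1.02) in H1299. That is 1 of 9 called lower in each line, beside 1.69% of all genes in DDX21 KO and 4.27% in H1299. KDM1A, the histone demethylase of the complex, had 29.2 to 46.2 FPKM. SRRM4, the splicing factor that inactivates REST in neurons, was listed at 0 in all 4 libraries.

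Of 12 genes of granins and prohormone processing, 8 stayed under 50 counts in all libraries, 2 of them at or under 3. PAM, the peptide-amidating enzyme, and VGF were the most abundant, PAM with 42.4 to 49.1 FPKM. None of the entering genes was called in the 4 comparisons between libraries. PCSK1N, a convertase inhibitor, had 59 counts in miR-34a DDX21 KO and 28 in non-treated DDX21 KO, against 45 in miR-34a H1299 and 11 in non-treated H1299, and its difference of miR-34a ratios, -1.19 (-2.28 to -0.11), was called lower.

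Among 20 genes of synaptic vesicles and exocytosis, 10 stayed under 50 counts throughout, 3 of them at or under 3. SYPL1 and SYNGR2, a synaptogyrin, were the most abundant, SYNGR2 with 20.5 to 39.1 FPKM. With miR-34a in H1299, 2 of the 10 entering genes fell, beside 4.27% of all genes, and 0 rose, beside 3.62%. They were SYT11, a synaptotagmin, with a log2 ratio of -1.46 (-2.15 to -0.91), and VAMP2, a vesicle SNARE, with -1.46 (-2.19 to -0.89). The median over the list was -0.43, against 0.00267 over all genes. With miR-34a in DDX21 KO, 2 of 9 fell, beside 1.69% of all genes, SYT1, the calcium sensor of release, with -1.16 (-1.41 to -0.93), and SYT11 with -1.21 (-1.79 to -0.73), and the median was -0.51. Between the lines SNAP25, a membrane SNARE, rose without miR-34a, with a log2 ratio of 1.04 (0.76 to 1.35). SYNGR1 fell without miR-34a, with -1.16 (-2.03 to -0.48), and SYNGR3 fell with it, with -1.30 (-1.58 to -1.05). SYNGR1 and SYNGR3 encode synaptogyrins, relatives of synaptophysin. Without miR-34a, 1 of 10 entering genes was called higher and 1 lower, beside 3.79% and 2.75% of all genes. With miR-34a in both lines, 1 of 7 was called lower, beside 2.96%. The synaptic genes that were called had low levels, between 0.15 and 5.61 FPKM. For the H1299 calls, SYT11 and VAMP2 passed the minimum of 50 only by their non-treated counts, 96 and 87. After miR-34a they had 31 and 28. The DDX21 KO call of SYT11 likewise rests on 92 non-treated counts, with 47 after miR-34a. SYNGR1 entered between the lines only by its 62 counts from non-treated H1299. Entry of this kind favours these calls, so the shares and medians with miR-34a carry that limit.

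Of 15 neuropeptide and receptor genes 12 stayed under 50 counts throughout, 8 of them at or under 3. NMU, neuromedin U, was the only one called, with 79 counts in miR-34a DDX21 KO and 105 in non-treated DDX21 KO, against 9 in miR-34a H1299 and 13 in non-treated H1299. NMU rose in DDX21 KO, with log2 ratios of 3.21 (2.58 to 4.38) without and 2.88 (2.14 to 4.32) with miR-34a. That is 1 of 3 entering genes in each comparison, beside 3.79% of all genes called higher without and 3.99% with miR-34a. NMU reached 50 counts in the DDX21 KO libraries alone, so its entry and its calls rest on the same counts.

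Among 23 surface and neuronal markers, 15 stayed under 50 counts throughout, 8 of them at or under 3, and the others included abundant mRNAs. BEX1, a neuronal adaptor protein gene, had 18.6 to 38.7 FPKM and was called in no comparison. DLL3, a Notch ligand of small cell lung cancer, had 4.90 FPKM in miR-34a DDX21 KO, 4.16 FPKM in non-treated DDX21 KO, 4.86 FPKM in miR-34a H1299 and 4.27 FPKM in non-treated H1299, and was called in no comparison. TUBB3, the neuronal tubulin, had 165 FPKM in miR-34a DDX21 KO and 114 FPKM in non-treated DDX21 KO, and 177 FPKM in miR-34a H1299 and 80.0 FPKM in non-treated H1299. It rose with miR-34a in H1299, with a log2 ratio of 1.14 (1.10 to 1.19), and its ratio in DDX21 KO was 0.51 (0.46 to 0.56). MAP2, a dendritic microtubule protein gene, had 330 counts in miR-34a DDX21 KO and 205 in non-treated DDX21 KO, against 162 in miR-34a H1299 and 62 in non-treated H1299. It rose with miR-34a in H1299, with a log2 ratio of 1.47 (1.07 to 1.95), and in DDX21 KO both without miR-34a, with 2.09 (1.72 to 2.57), and with it, with 1.02 (0.76 to 1.31). The difference of the miR-34a ratios of MAP2, -1.07 (-1.56 to -0.59), was called lower. The neurofilament genes differed between the lines in opposite directions. NEFL had 90 counts in miR-34a DDX21 KO and 77 in non-treated DDX21 KO, against 8 in miR-34a H1299 and 4 in non-treated H1299, and it rose in DDX21 KO without and with miR-34a. NEFH had 12 counts in miR-34a DDX21 KO and 16 in non-treated DDX21 KO, against 215 in miR-34a H1299 and 376 in non-treated H1299, and it fell in both. NEFL reached 50 counts in the DDX21 KO libraries alone and NEFH in the H1299 libraries alone, which favours these calls. DPYSL3, an axon growth protein gene, rose in DDX21 KO over H1299 with miR-34a, with 1.01 (0.92 to 1.12). With miR-34a in H1299, 2 of 7 entering genes were called higher, beside 3.62% of all genes. Between the lines without miR-34a, 2 of 8 were called higher and 1 lower, beside 3.79% and 2.75%. With miR-34a these were 3 and 1 of 8, beside 3.99% and 2.96%. In the difference 1 of 8 was called lower, beside 2.07%.

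**Figure D4:**
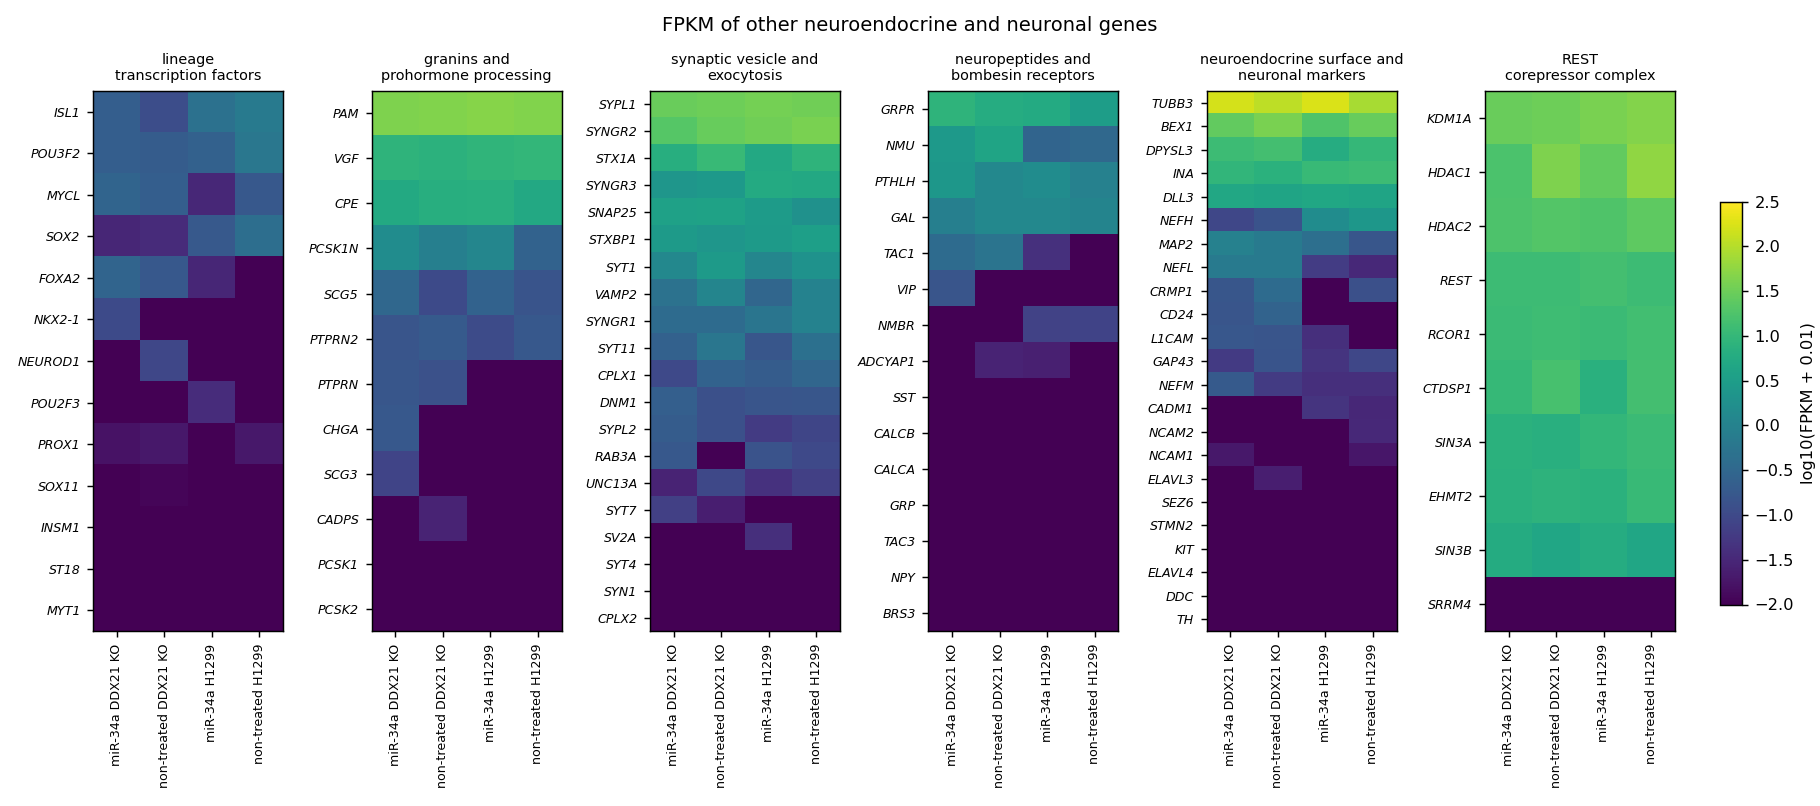
Heat maps of FPKM on a log10 scale for the other genes of the neuroendocrine programme (rows, by list) in the 4 libraries (columns), with genes at 0 in the darkest colour. Several lineage factors, neuropeptides and the prohormone convertases PCSK1 and PCSK2 are dark in all 4 columns, as is SRRM4 in the REST list. TUBB3, PAM, SYPL1 and the other genes of the REST list are bright.

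Genes of the other cell identities were called too. AXL, a receptor tyrosine kinase of mesenchymal cells, fell with miR-34a in both lines, with log2 ratios of -2.05 (-2.08 to -2.03) in DDX21 KO and -2.24 (-2.27 to -2.21) in H1299, and FN1, fibronectin, rose in DDX21 KO over H1299 with miR-34a, with 1.41 (1.22 to 1.63). ANXA1, an annexin, had 325 to 512 FPKM and was called in no comparison. AXL was thus 1 of 8 mesenchymal genes called lower in each line, beside 1.69% of all genes in DDX21 KO and 4.27% in H1299. FN1 was 1 of 8 called higher, beside 3.99%. Without miR-34a, 3 keratins rose in DDX21 KO over H1299, KRT7 with 1.84 (1.23 to 2.72), KRT8 with 1.15 (1.10 to 1.19) and KRT18 with 1.07 (1.05 to 1.10). They were the only 3 of the 11 epithelial and alveolar genes that entered, beside 3.79% of all genes called higher. KRT7 entered only through the 64 counts of non-treated DDX21 KO, against 22 in non-treated H1299, which favours its call. KRT8 also rose with miR-34a in H1299, with 1.15 (1.11 to 1.197), and the difference of the miR-34a ratios of KRT7 was called lower, at -1.63 (-2.49 to -0.77). These were 1 of 2 entering genes beside 3.62% of all genes, and 1 of 3 beside 2.07%. The part of the mesenchymal and epithelial genes in the results for the markers was not tested.

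The authors' deposited table of comparisons holds 908 genes, beside 46427 in the gene-level table. In it, 0 of the 6 markers and 14 of the 126 genes in the lists above appeared. A set of 6 is too small to read the 0 as a result about the markers.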

How the data were processed

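RNA depleted of ribosomal RNA was sequenced from stranded libraries, 1 per group, per the labels' protocols. Bowtie2 2.0.6, TopHat2 2.0.9 and GRCh38 are named in the submitters' processing notes, and nothing further on the counting, such as its tool or use of strand, is given in the sources used here. Per the file headers, the authors deposited estimated counts per gene and per transcript as whole numbers, together with FPKM, TPM and transcript length. The TPM values were not used for a result. The authors' deposited table of comparisons holds signed fold changes (scores with no value between -1 and 1) and p-values from a test that no header names, and only its gene names were used.

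Counts were scaled by TMM (edgeR 4.0.16, R 4.3.3) to CPM. Log2 ratios used a prior count of 2. With 1 library per group there was no test: 95% counting intervals took the reads of both libraries as a binomial split (exact, Clopper-Pearson), or used the Poisson variance of the 4 counts for the difference of ratios. Genes needed 50 counts in 1 library, and a call needed a 2-fold ratio with an interval that excludes no change. A gene near that minimum can enter through its highest library alone, which favours a call. Levels of different genes were compared by FPKM. The functions were tested on simulated counts with Poisson error alone. Known changes were placed only in genes well above the count minimum. Spread between cultures, and changes in genes as low as SYP and CHGB, were thus not covered. All columns of the 4 libraries were assigned by the sample numbers in the labels.

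By the rule for named genes, the text could name the markers, their neighbours and families, DDX21, key lineage genes, and from each of 10 lists the called genes and the 2 most abundant. Some genes beyond this rule, NCAM1, DLL3, SCG3, SCG5, SRRM4, CDH1, PCSK1, PCSK2 and the members of the synaptophysin and bombesin families, were named after their values were seen. The markers and lists were chosen with earlier results of these data known. Alternatives were DESeq2 1.42.0 size factors, library totals, FPKM with a pseudocount of 0.1, summed transcript counts, count minimums of 10 and 200, and a prior count of 0.5. 1 gene of the lineage list is not reported here.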

Additional observations from a re-analysis of the deposited data

Results flagged for a closer look

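SYP had a miR-34a ratio that was 1.27 higher on the log2 scale in DDX21 KO than in H1299, with 59 counts in miR-34a DDX21 KO and 52 in non-treated DDX21 KO, against 29 in miR-34a H1299 and 85 in non-treated H1299. It drew attention because the difference passed 2-fold with a counting interval clear of 0. CHGB, SCG2 and NMB drew attention because the miR-34a ratio was below 0 in DDX21 KO and above 0 in H1299. Their log2 differences were -0.90 for CHGB, -0.28 for SCG2 and -0.58 for NMB. The interval of the miR-34a ratio spanned 0 in H1299 for CHGB and SCG2, and in DDX21 KO for NMB. Opposite directions in the lines were thus not clear of counting error for any of them. The interval of the SCG2 difference also spanned 0. With 1 library per group none of these 4 differences was tested, and the counting intervals leave out the spread between cultures.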

How the results depend on the processing

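Over 7 alternatives, 199 log2 ratios of the markers were recomputed. All kept their sign and stayed within the counting interval of the value given above. For the count minimums and the summed transcript counts this was fixed beforehand. A minimum only sets which genes enter, and the transcript counts of the markers summed to their gene counts. Calls of markers moved in 2 ways. With miR-34a in both lines, 0 markers were called, and 1, SYP, was called with library totals alone and 1 with a prior count of 0.5, because SYP lies just inside 2-fold. At a count minimum of 200 SYP does not enter, so the 1 call with miR-34a in H1299 and the 1 call in the difference both become 0. The counts of all genes called moved with the count minimum, which sets how many genes enter. For miR-34a in H1299 they were 1073, against 2110 at a minimum of 10 and 648 at 200. For miR-34a in DDX21 KO they were 443, against 1246 and 223. For DDX21 KO over H1299 they were 890 without miR-34a, against 2076 and 376, and 947 with miR-34a, against 2190 and 387. For the difference they were 583, against 1351 and 152. No paired analysis was possible because each group has 1 library, and no library could be left out for the same reason. Depth limits SYP and CHGB most, with 29 to 85 and 109 to 150 counts.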
